A study of Mus musculus with 6 samples.

Results

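The genes described here are the autophagy and atrogene programme that forkhead box O (FOXO) transcription factors are known to drive in muscle. They were measured in granulosa cells of wild-type mice and of mice with a knockout that targets Foxo1 and Foxo3. The list held 37 genes. A gene was measured where a probe set of the array carried its symbol and no other, and 35 of the 37 were measured, among 18193 genes in all. Each gene was read on its brightest such probe set over all 6 arrays. Bnip3l lay only on probe sets that carry a second symbol and Optn was not analysed here.

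Granulosa cells, the somatic layer around the egg in a follicle, gave the RNA, which was hybridised to 6 arrays in 3 groups of 2. The first group was Foxo1 f/-;Foxo3 f/-; Amhr2-cre cells from mice aged 2 months, the next was the same genotype at day 25, and the last was wild type at day 25. The double knockout is called dKO below. Its Cre recombinase is expressed from the Amhr2 locus, which is active in granulosa cells, and no group carried the Cre alone, so an effect of the driver cannot be told apart from that of the deletion. The strain background was mixed from FVB and C57BL/6 in every group. Wild-type cells at 2 months were not analysed here, so age and genotype differ together between dKO cells at 2 months and wild type.

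Autophagy encloses a piece of cytoplasm in a double membrane and delivers it to the lysosome. A kinase complex built on ULK1 starts the process, a class III PI3-kinase marks the membrane, WIPI proteins read the mark, and a pair of ubiquitin-like conjugation systems attaches ATG8 proteins (LC3 and GABARAP) to the growing membrane, where cargo receptors bind them. Atrogenes are genes induced in wasting muscle. They include the ubiquitin ligases Fbxo32, Trim63 and Fbxo30, which mark muscle proteins for the proteasome, and FOXO factors activate these and several autophagy genes when insulin signalling is low. In the follicle, autophagy and granulosa cell death accompany atresia, the loss of follicles that do not ovulate.

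The arrays had nearly 1 distribution, with a median intensity of 73 or 74 and a lowest value of 6 or 7. dKO 2-month replicate 1 stood apart, with correlations across probe sets of 0.964 to 0.978 with the other 5 arrays, which had 0.982 to 0.992 among themselves. Foxo1 intensity was 126 and 343 on the dKO 2-month arrays, 904 and 2291 on the dKO day-25 arrays, and 10319 and 7666 in wild type. Some Foxo1 signal thus remained in dKO cells at day 25, and its source was not tested. Foxo3 was 2484 and 1872 on the dKO 2-month arrays, 2539 and 3279 on the dKO day-25 arrays, and 1632 and 1342 in wild type, and the labels do not say which part of the gene is removed, so this probe set does not check the deletion. Markers of granulosa cells were bright in every group, with 14 of 14 at 213 or more. Markers of other cells were present too. The summed intensity of 12 leukocyte markers was 5638 to 17146 on the dKO 2-month arrays, 4954 to 8459 on the dKO day-25 arrays and 1767 to 3758 in wild type, and that of 12 oocyte markers was 6724 to 40090 on the dKO 2-month arrays, 49819 to 72929 on the dKO day-25 arrays and 21014 to 34617 in wild type. At day 25 the dKO mean was higher for 11 of 12 leukocyte, 12 of 12 oocyte, 10 of 10 endothelial and 11 of 11 stromal and smooth muscle markers, and for 9 of 14 granulosa markers. No marker was at 0. The 14 skeletal muscle markers, which were listed because atrogenes are muscle genes, had single intensities of 10 to 162.

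The DNA just upstream of 4 members is shown because their arrays carry the results below or because they hold the motifs searched. Each run is the 250 bases before the RefSeq start on GRCm38.p6, 5′ to 3′ on the gene's own strand, and capitals mark a FOXO element (GTAAACA, or TGTTTAC on the other strand) or an E-box (CACGTG, the core of the element bound by TFEB). The windows lie at chr4:134314870-134315119 (plus strand) for Trim63, chr8:13158911-13159160 (plus) for Lamp1, chr11:109611390-109611639 (minus) for Wipi1 and chr8:121590188-121590437 (plus) for Map1lc3b.
Trim63: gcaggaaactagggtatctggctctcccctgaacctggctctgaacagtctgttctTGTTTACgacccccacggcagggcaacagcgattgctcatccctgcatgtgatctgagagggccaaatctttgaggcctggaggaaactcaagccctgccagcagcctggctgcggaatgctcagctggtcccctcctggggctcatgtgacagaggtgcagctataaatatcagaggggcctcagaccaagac
Lamp1: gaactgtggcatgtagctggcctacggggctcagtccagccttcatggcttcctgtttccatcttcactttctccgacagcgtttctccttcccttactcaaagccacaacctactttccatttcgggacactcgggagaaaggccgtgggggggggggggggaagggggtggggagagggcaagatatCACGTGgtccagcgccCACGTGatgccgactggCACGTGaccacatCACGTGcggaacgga
Wipi1: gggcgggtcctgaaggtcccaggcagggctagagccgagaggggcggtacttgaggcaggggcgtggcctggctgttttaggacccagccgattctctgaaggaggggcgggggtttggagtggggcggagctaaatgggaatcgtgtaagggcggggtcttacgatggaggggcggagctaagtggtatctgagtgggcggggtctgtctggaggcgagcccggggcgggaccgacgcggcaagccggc
Map1lc3b: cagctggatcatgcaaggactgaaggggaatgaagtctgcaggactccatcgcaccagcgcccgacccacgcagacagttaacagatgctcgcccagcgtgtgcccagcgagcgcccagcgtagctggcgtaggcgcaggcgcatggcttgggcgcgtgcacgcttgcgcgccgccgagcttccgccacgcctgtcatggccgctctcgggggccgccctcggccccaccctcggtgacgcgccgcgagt

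A window was found for 28 of the 35 measured members; Rb1cc1, Atg16l1, Pik3c3, Map1lc3a, Atg12, Fbxo32 and Becn1 were not matched. The FOXO element was present in 1 of the 28, Trim63, and in 3.17% of 32851 windows of the same length over all genes. The E-box was present in 5 of the 28, namely Atg3, Atg5, Atg7, Bnip3 and Lamp1, and in 6.02% of all windows. Some genes have more than 1 window: the 28 members had 33, and the 32851 windows belong to 27025 genes. The member counts are therefore over genes and the shares over windows. Each member with a motif had a single window. Lamp1 held 4 E-boxes within its last 61 bases. The Wipi1 and Map1lc3b windows held neither motif, which says only that these letters are absent from these windows. Member windows had a median GC content of 58.8%, against 52.4% over all windows.

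At day 25 the difference between genotypes was under 1.5-fold for 33 of 35 members (89.6% of genes). Of the 35 members, 0 passed in limma after Benjamini-Hochberg adjustment over 45037 probe sets, where 0.0% of genes did. Foxo1 itself, at a log2 difference of -2.63, did not pass (limma, adjusted p = 0.508). The adjusted test therefore cannot tell changed from unchanged members. An unadjusted p under 0.05 was found for 2 members, Wipi1 and Trim63, both with a lower mean in dKO cells. Over all genes 8.31% passed that in either direction, 4.88% with a higher and 3.43% with a lower mean. The dKO mean was lower for 21 members and higher for 14, against 44.2% and 55.3% of genes, and the median log2 difference was -0.07, against 0.03 over all genes. Both dKO arrays lay below both wild-type arrays for 12 members (19.5% of genes) and above them for 6 (26.4%). The unadjusted 95% interval of the difference stayed within 2-fold either way for 32 members (78.3% of genes), and for 33 it excluded a fall of 2-fold or more (91.4%). In bulk samples fewer cells of a type and less RNA per cell cannot be told apart.

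**Figure D1:**
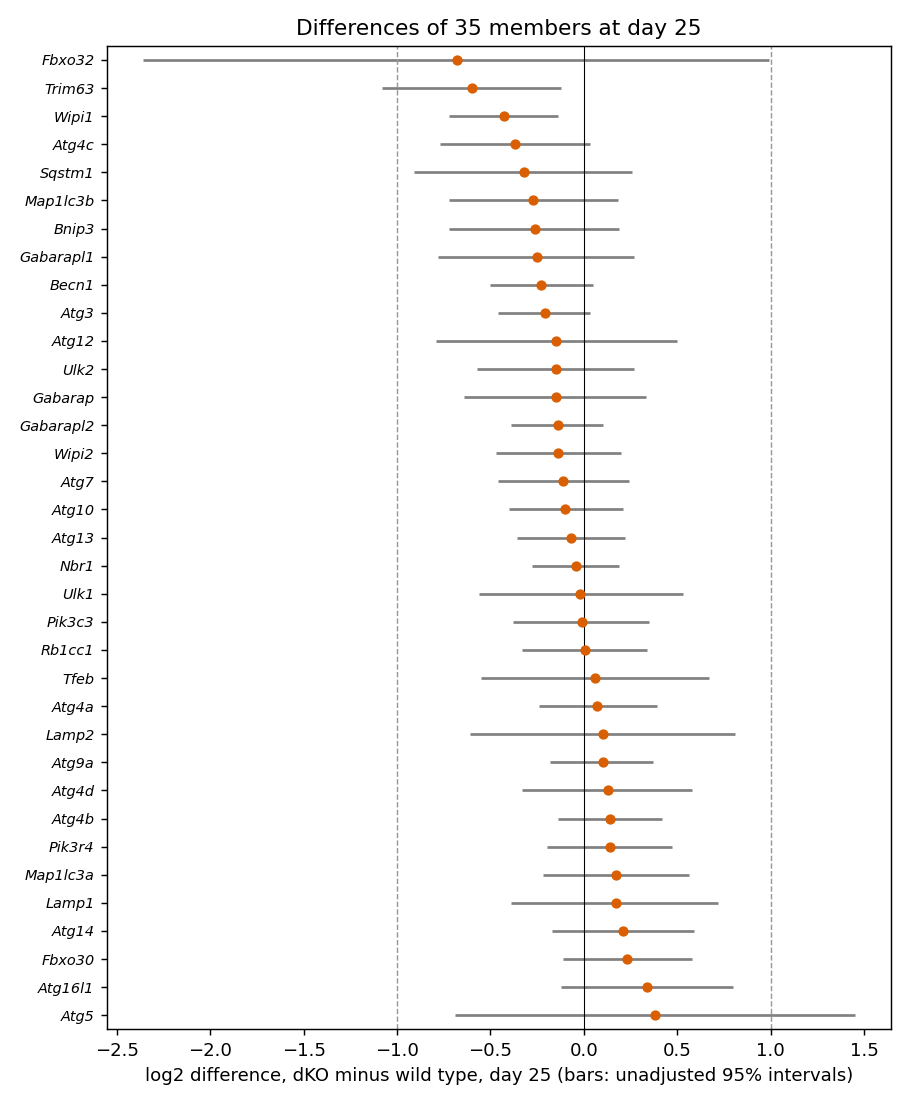
The log2 difference of each of the 35 members at day 25 (x axis), dKO minus wild type, with bars for the unadjusted 95% interval and dashed lines at a 2-fold difference. Fbxo32 and Atg5 have wide intervals that cross a dashed line, Trim63 ends just past the lower one, and the bars of the other 32 lie between the lines.

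Of the 35 members, 13 are among those reported as FOXO targets in muscle or liver. At day 25, 10 of them had a lower dKO mean and 3 a higher one, against 44.2% and 55.3% of genes. Their median log2 difference was -0.15, against 0.03 over all genes. Those with a lower mean include Ulk1 at -0.02 and Pik3c3 at -0.01. Without dKO day-25 replicate 1 the split was 8 lower and 5 higher, with a median of -0.09. That array, dKO day-25 replicate 1, held the lowest value of the 6 for 12 of 35 members (34.3%, against 17.6% of genes) and the highest for 0 (12.1% of genes). Without it 18 members had a lower dKO mean and 17 a higher one, and the median over all members was -0.01.

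**Figure D2:**
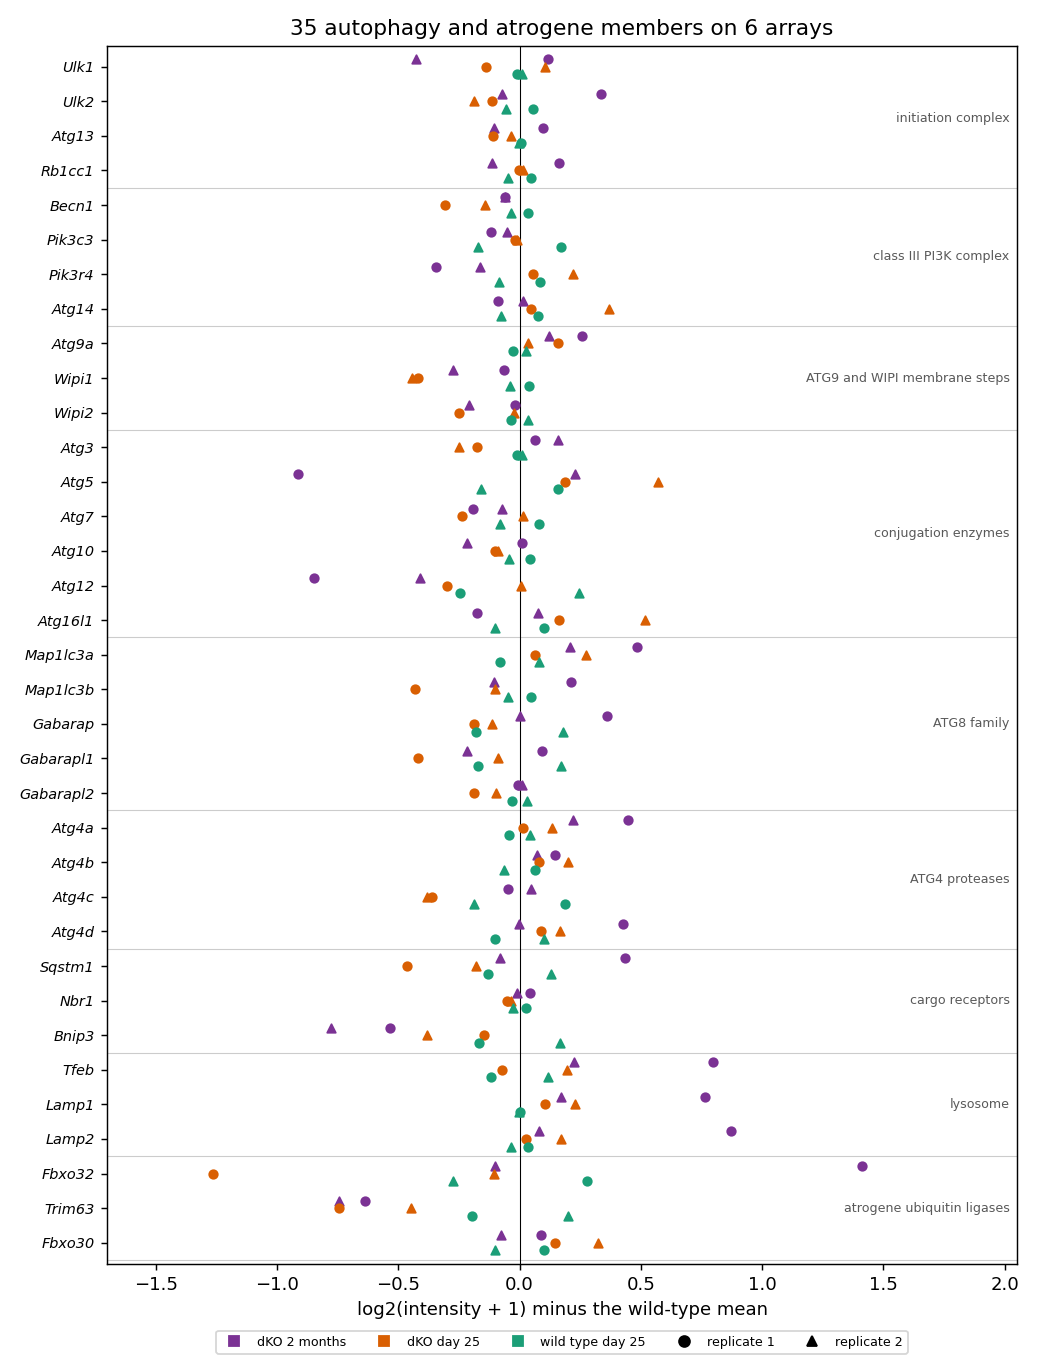
The log2(intensity + 1) of each of the 35 members on each of the 6 arrays minus the gene's wild-type mean (x axis), grouped by role, with colour for the group and shape for the replicate. Most points lie within 0.5 of the wild-type mean, while dKO 2-month replicate 1 (purple circles) stands far to the right for Fbxo32, Lamp1, Lamp2 and Tfeb and far to the left for Atg5 and Atg12.

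Among genes that start the process, Ulk1, the initiating kinase, had intensities of 827 and 568 on the dKO 2-month arrays, 694 and 821 on the dKO day-25 arrays, and 758 and 768 in wild type. Ulk2, its close relative, was at 659 and 497 on the dKO 2-month arrays, 483 and 459 on the dKO day-25 arrays, and 543 and 503 in wild type. Ulk1 overlapped between all groups, and Ulk2 at day 25 was lower on both dKO arrays than in wild type (log2 difference -0.15, 95% interval -0.57 to 0.27). Atg13, the adaptor of the kinase, and Rb1cc1, its scaffold, differed by -0.07 and 0.0057 on the log2 scale at day 25. The probe sets of Rb1cc1 disagreed. Its next brightest had intensities of 192 and 147 on the dKO 2-month arrays, 213 and 192 on the dKO day-25 arrays, and 410 and 266 in wild type. All 4 dKO arrays were below wild type there, by -0.70 at day 25 and -0.97 at 2 months (limma, adjusted p = 0.597 and 0.297). On the brightest probe sets of the 4 genes the differences at day 25 ran from -0.15 to 0.0057.

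Becn1, the core of the class III PI3-kinase complex, had intensities of 1937 and 1936 on the dKO 2-month arrays, 1629 and 1830 on the dKO day-25 arrays, and 2069 and 1969 in wild type. All 4 dKO arrays lay below both wild-type arrays, which held for 3 members (Becn1, Wipi1 and Trim63) and for 10.8% of genes. The log2 difference at day 25 was -0.23 ± 0.10 (SE; limma, adjusted p = 0.654). Its probe sets did not run together: 4 of 5 had a lower mean at day 25 and 1 a higher one, from -0.25 to 0.10. Between dKO cells at 2 months and wild type 4 of 5 had a higher mean and 1 a lower one, from -0.06 to 0.15. The lower one was the brightest, which is of a kind that the array design marks as able to cross-hybridize. On the next brightest the intensities were 1061 and 972 on the dKO 2-month arrays and 947 and 1031 in wild type, which overlap. Pik3c3, the lipid kinase itself, was at 222 and 232 on the dKO 2-month arrays, 238 and 239 on the dKO day-25 arrays, and 271 and 214 in wild type, so that all dKO values fell between the wild-type ones. Atg14, which directs the complex to autophagy, was at 403 and 432 on the dKO 2-month arrays, 443 and 553 on the dKO day-25 arrays, and 452 and 406 in wild type, and its highest value was dKO day-25 replicate 2. Pik3r4, the regulatory subunit, was at 832 and 944 on the dKO 2-month arrays, 1101 and 1233 on the dKO day-25 arrays, and 1122 and 998 in wild type. It was the one gene of the complex whose dKO arrays at 2 months lay below every array at day 25, of either genotype. Its log2 difference between dKO cells at 2 months and at day 25 was -0.39 ± 0.13 (SE; limma, adjusted p = 0.712). The array holds 1 probe set for Pik3r4, also of the kind marked as able to cross-hybridize. The gene therefore has no value when such probe sets are left out.

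Wipi1, which binds the lipid made by this kinase, had intensities of 1390 and 1200 on the dKO 2-month arrays, 1086 and 1069 on the dKO day-25 arrays, and 1492 and 1415 in wild type. All 4 dKO arrays were below both wild-type arrays, and those at day 25 were below those at 2 months. The log2 difference at day 25 was -0.43 ± 0.11 (SE, 95% interval -0.72 to -0.14; limma, adjusted p = 0.517), a ratio of 0.742. Between dKO cells at 2 months and at day 25 it was 0.26 ± 0.11 (adjusted p = 0.712). This probe set is of a kind that the array design marks as able to cross-hybridize. On the brightest one that is not so marked the difference was -0.47 at day 25, 0.06 ± 0.11 between dKO cells at 2 months and at day 25 (limma, adjusted p = 0.881), and -0.41 between dKO cells at 2 months and wild type, against -0.17 on the first. The array holds 6 probe sets for Wipi1, and at day 25 all 6 had both dKO arrays below both wild-type arrays, with log2 differences of -0.81 to -0.29. The probe set with the widest gap had 214 and 208 on the dKO day-25 arrays against 384 and 360 in wild type. All 6 were also without overlap and lower in dKO cells at 2 months than in wild type, by -0.52 to -0.12. Probe sets of 1 gene read the same samples and are no replicates. Wipi2, which recruits the conjugation machinery, overlapped at day 25 (-0.14), and Atg9a, the membrane protein of the vesicles that seed the membrane, was above wild type on all 4 dKO arrays (0.10 at day 25).

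**Figure D3:**
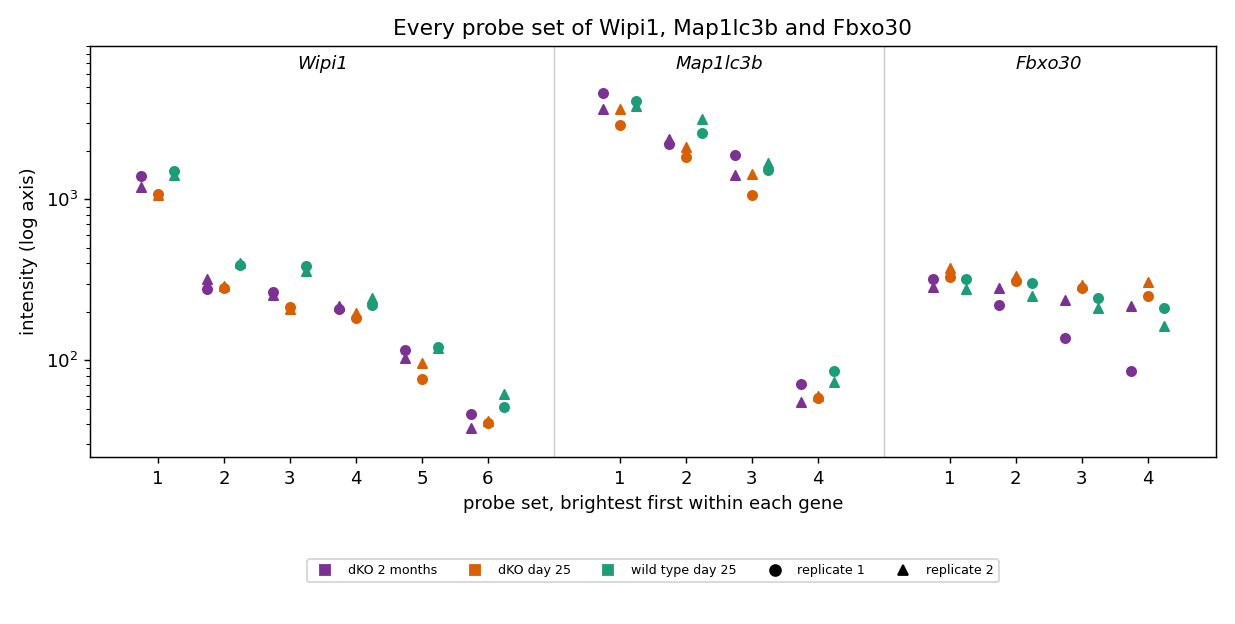
Intensity (log axis) on every probe set of Wipi1, Map1lc3b and Fbxo30, ordered from the brightest, with colour for the group and shape for the replicate; levels of different probe sets are not comparable. The orange dKO day-25 points lie below the green wild-type points on all 6 Wipi1 and all 4 Map1lc3b probe sets and above them on all 4 Fbxo30 probe sets.

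Agreement of this kind was counted over all genes with 4 or more probe sets. Of 7 such members at day 25, all probe sets lay below wild type without overlap for 2, Wipi1 and Map1lc3b, and above it for 1, Fbxo30. Over 1949 genes of this kind the shares were 5.13% below and 1.85% above. With the mean of all probe sets as the gene's value, the log2 difference at day 25 was -0.49 ± 0.09 for Wipi1 (limma, adjusted p = 0.460) and -0.40 ± 0.14 for Map1lc3b (adjusted p = 0.572).

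Among the conjugation enzymes, Atg3, which transfers ATG8 proteins to lipid, had intensities of 1271 and 1358 on the dKO 2-month arrays, 1077 and 1023 on the dKO day-25 arrays, and 1209 and 1224 in wild type. The groups did not overlap, with dKO cells lowest at day 25 and highest at 2 months. The log2 difference at day 25 was -0.21 ± 0.10 (SE; limma, adjusted p = 0.647), and that between dKO cells at 2 months and at day 25 was 0.32 ± 0.10 (adjusted p = 0.712). Atg12, the ubiquitin-like protein joined to ATG5, was at 631 and 855 on the dKO 2-month arrays, 924 and 1139 on the dKO day-25 arrays, and 959 and 1345 in wild type. Both arrays at 2 months lay below all others, and the log2 difference between dKO cells at 2 months and wild type was -0.63 ± 0.25 (limma, adjusted p = 0.386). Atg5, its partner, was at 458 and 1014 on the dKO 2-month arrays, 985 and 1286 on the dKO day-25 arrays, and 965 and 775 in wild type. The value of 458, on dKO 2-month replicate 1, was more than 2-fold below the other array of its group. At day 25 its probe sets disagreed, with a higher dKO mean on 1 and a lower one on 2, from 0.38 to -0.29. Atg16l1, which places the conjugate on the membrane, had both dKO arrays above wild type at day 25 (0.34, 95% interval -0.12 to 0.80). Atg7, the activating enzyme of both systems, and Atg10, which joins ATG12 to ATG5, differed by -0.11 and -0.10 at day 25.

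Of the 5 ATG8 genes, 4 had a lower dKO mean at day 25 and 5 a higher mean in dKO cells at 2 months than at day 25. Map1lc3b, which encodes LC3B, the usual marker of autophagosomes, had intensities of 4556 and 3665 on the dKO 2-month arrays, 2917 and 3669 on the dKO day-25 arrays, and 4072 and 3808 in wild type. At day 25 both dKO arrays lay below wild type, while the arrays at 2 months spanned it. The log2 difference at day 25 was -0.27 ± 0.17 (SE, 95% interval -0.72 to 0.18; limma, adjusted p = 0.717), and over its 4 probe sets the differences ran from -0.54 to -0.27. Gabarapl1, a reported FOXO target, was at 1485 and 1197 on the dKO 2-month arrays, 1041 and 1311 on the dKO day-25 arrays, and 1236 and 1570 in wild type, and all groups overlapped. Gabarap and Gabarapl2 differed by -0.15 and -0.14 at day 25. Map1lc3a, which encodes LC3A, was the one ATG8 gene with a higher dKO mean (0.17), and it was -0.04 when probe sets that the array design marks as cross-hybridizing were left out.

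The ATG4 proteases, which trim ATG8 proteins and release them from membranes, split. Atg4c had intensities of 265 and 283 on the dKO 2-month arrays, 213 and 210 on the dKO day-25 arrays, and 312 and 240 in wild type. Its day-25 dKO arrays were the lowest, with a log2 difference from wild type of -0.37 ± 0.15 (SE; limma, adjusted p = 0.629) and of 0.37 ± 0.15 between dKO cells at 2 months and at day 25 (adjusted p = 0.712). Atg4a was at 266 and 227 on the dKO 2-month arrays, 197 and 214 on the dKO day-25 arrays, and 189 and 201 in wild type. The arrays at 2 months lay above all others, by 0.33 ± 0.12 against wild type (limma, adjusted p = 0.371). Atg4b, the protease of broadest activity, was at 597 and 567 on the dKO 2-month arrays, 569 and 619 on the dKO day-25 arrays, and 564 and 515 in wild type. All 4 dKO arrays were above both wild-type arrays, which held for 3 members (Atg4b, Atg9a and Lamp1) and for 13.6% of genes. Of its 3 probe sets 1 had a lower dKO mean at day 25, and Atg4d overlapped between groups.

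Among cargo receptors, Bnip3, which sits on mitochondria and brings them to autophagosomes, had intensities of 2112 and 1784 on the dKO 2-month arrays, 2763 and 2350 on the dKO day-25 arrays, and 2726 and 3430 in wild type. Both arrays at 2 months were below all the others, and the day-25 groups overlapped. The log2 difference from wild type was -0.66 ± 0.17 at 2 months (SE, 95% interval -1.11 to -0.20; limma, adjusted p = 0.300) and -0.26 at day 25 (95% interval -0.72 to 0.19). Sqstm1, the receptor for ubiquitin-tagged cargo, was at 3159 and 2208 on the dKO 2-month arrays, 1693 and 2060 on the dKO day-25 arrays, and 2132 and 2557 in wild type. Both dKO arrays at day 25 lay below wild type on both of its probe sets, which differed in size, by -0.32 and -0.90. Nbr1, a receptor of like function, kept between 2596 and 2775 on all arrays.

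The lysosomal members had higher means in dKO cells than in wild type at both ages, and higher ones at 2 months than at day 25. Lamp1, an abundant lysosomal membrane protein, had intensities of 9473 and 6288 on the dKO 2-month arrays, 6004 and 6542 on the dKO day-25 arrays, and 5594 and 5572 in wild type. Lamp2, which also takes part in chaperone-mediated autophagy, was at 9833 and 5682 on the dKO 2-month arrays, 5477 and 6053 on the dKO day-25 arrays, and 5505 and 5251 in wild type. Tfeb, the transcription factor of lysosomal genes, was at 233 and 156 on the dKO 2-month arrays, 127 and 153 on the dKO day-25 arrays, and 123 and 145 in wild type. For each of the 3 genes dKO 2-month replicate 1 was the highest array, and the other dKO array of that age was close to the day-25 values. The log2 differences between dKO cells at 2 months and wild type were 0.47 for Lamp1 (95% interval -0.09 to 1.02), 0.48 for Lamp2 (-0.24 to 1.19) and 0.51 for Tfeb (-0.10 to 1.12). At day 25 they were 0.17, 0.10 and 0.06. The brightest probe set of Lamp2 had the smallest difference of its 4. Over all 4 the differences from wild type were 0.48 to 0.91 at 2 months, each without overlap, and 0.10 to 0.38 at day 25. On each of them dKO 2-month replicate 1 was the highest array. Of 1949 genes with 4 or more probe sets, 2.87% had all of them above wild type without overlap at 2 months.

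The atrogene ubiquitin ligases did not move together. Fbxo32, the muscle ubiquitin ligase best known as a FOXO target, had intensities of 670 and 234 on the dKO 2-month arrays, 104 and 233 on the dKO day-25 arrays, and 304 and 207 in wild type. On this probe set the replicates of each dKO group differed by more than 2-fold, and the dKO values at day 25 overlapped wild type. The log2 difference at day 25 was -0.68 with a 95% interval of -2.36 to 0.99, and that between dKO cells at 2 months and at day 25 was 1.34 (-0.33 to 3.01). All 3 probe sets of Fbxo32 had a lower dKO mean at day 25, by -1.31 to -0.31. Of these 1 was without overlap, with 36 and 105 on the dKO day-25 arrays against 162 and 147 in wild type. Between dKO cells at 2 months and at day 25 all 3 were higher without overlap, by 0.79 to 1.37. Trim63 was at 13 and 12 on the dKO 2-month arrays, 12 and 15 on the dKO day-25 arrays, and 18 and 24 in wild type. All 4 dKO arrays were below both wild-type arrays. The wild-type values lay near the lower quartile of each array (22 or 23), and the dKO values of 12 to 15 lay below it. At such levels signal is hard to tell from background. The log2 difference was -0.60 ± 0.18 at day 25 (SE; limma, adjusted p = 0.558) and -0.69 ± 0.18 at 2 months (adjusted p = 0.301), on the log2(value + 1) scale. Fbxo30 was at 318 and 284 on the dKO 2-month arrays, 331 and 375 on the dKO day-25 arrays, and 321 and 279 in wild type. Its dKO arrays at day 25 were above all others on all 4 probe sets, by 0.22 to 0.57 against wild type, and the differences between dKO cells at 2 months and at day 25 were -1.02 to -0.23. On the probe set with the widest range the intensities were 86 and 216 in dKO cells at 2 months, 251 and 306 in dKO cells at day 25, and 211 and 164 in wild type, so dKO 2-month replicate 1 set the low end.

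Between dKO cells at 2 months and at day 25, 0 of 35 members passed in limma after adjustment, where 0.0% of genes did, and 2 had an unadjusted p under 0.05, Atg3 higher and Pik3r4 lower (6.63% of genes in either direction, 3.73% higher and 2.9% lower). At 2 months 22 members had a higher mean and 13 a lower one, against 53.4% and 46.2% of genes, and the groups did not overlap for 12 higher members (19.7% of genes) and 7 lower ones (17.0%). The ATG8 genes were higher in 5 of 5 and the lysosomal members in 3 of 3, and the conjugation enzymes lower in 5 of 6. The median log2 difference was 0.09, against 0.02 over all genes. Single arrays set these counts. Without dKO 2-month replicate 1, 18 members were higher and 17 lower with a median of 0.0048, and 1 had an unadjusted p under 0.05 (4.99% of genes). Without dKO 2-month replicate 2, so that replicate 1 stood alone, 11 of 35 had, where 27.4% of genes did, so the larger count goes with a larger share over all genes. Without dKO day-25 replicate 1 the count was 4 (3.94% of genes), and without replicate 2 it was 0 (4.2%).

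Between dKO cells at 2 months and wild type at day 25, 0 of 35 members passed in limma after adjustment, where 0.0% of genes did, and 3 had an unadjusted p under 0.05, Atg4a higher and Bnip3 and Trim63 lower (14.9% of genes in either direction, 9.53% higher and 5.36% lower). The mean was higher for 18 members and lower for 17, against 55.3% and 44.1% of genes, with a median log2 difference of 0.0011, against 0.04 over all genes. The groups did not overlap for 8 higher members (26.5% of genes) and 6 lower ones (17.3%). The 95% interval stayed within 2-fold either way for 27 members (74.5% of genes), and for 29 in dKO cells at 2 months against day 25 (77.6%). The 2 comparisons with wild type share its arrays, and those with dKO cells at day 25 share theirs, so a high or low array enters more than 1 of them. Without wild-type replicate 2 the count at an unadjusted p under 0.05 was 0 (9.4% of genes), and without dKO 2-month replicate 2 it was 8 of 35, where 30.0% of genes passed.

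The replicates show where the members can be read closely. In dKO cells at 2 months replicates differed by more than 1.5-fold for 4 members, Atg5, Fbxo32, Lamp1 and Lamp2 (19.2% of genes). They did so for 1 in dKO cells at day 25, Fbxo32 (6.85% of genes), and for 0 in wild type (7.61%). The median absolute log2 difference between replicates over the members was 0.23 in dKO cells at 2 months, 0.16 in dKO cells at day 25 and 0.15 in wild type, close to the 0.25, 0.15 and 0.14 over all genes in these groups. dKO 2-month replicate 1 held the highest value of the 6 arrays for 16 of 35 members (45.7%, against 30.6% of genes). It held the lowest for 5 (14.3%, against 28.8% of genes), namely Atg5, Atg12, Atg14, Atg16l1 and Pik3r4. On that array the median log2 deviation of the 12 leukocyte markers from their mean over all arrays was 1.64, and on the other arrays it was between -1.43 and 0.28. Oocyte markers were at -2.42 there and between -0.47 and 1.47 elsewhere, and endothelial markers at 1.11 and between -0.70 and 0.19. The lysosomal members were at 0.61 there and between -0.21 and 0.0042 elsewhere. The part of these cells in the members' values was not tested.

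**Figure D4:**
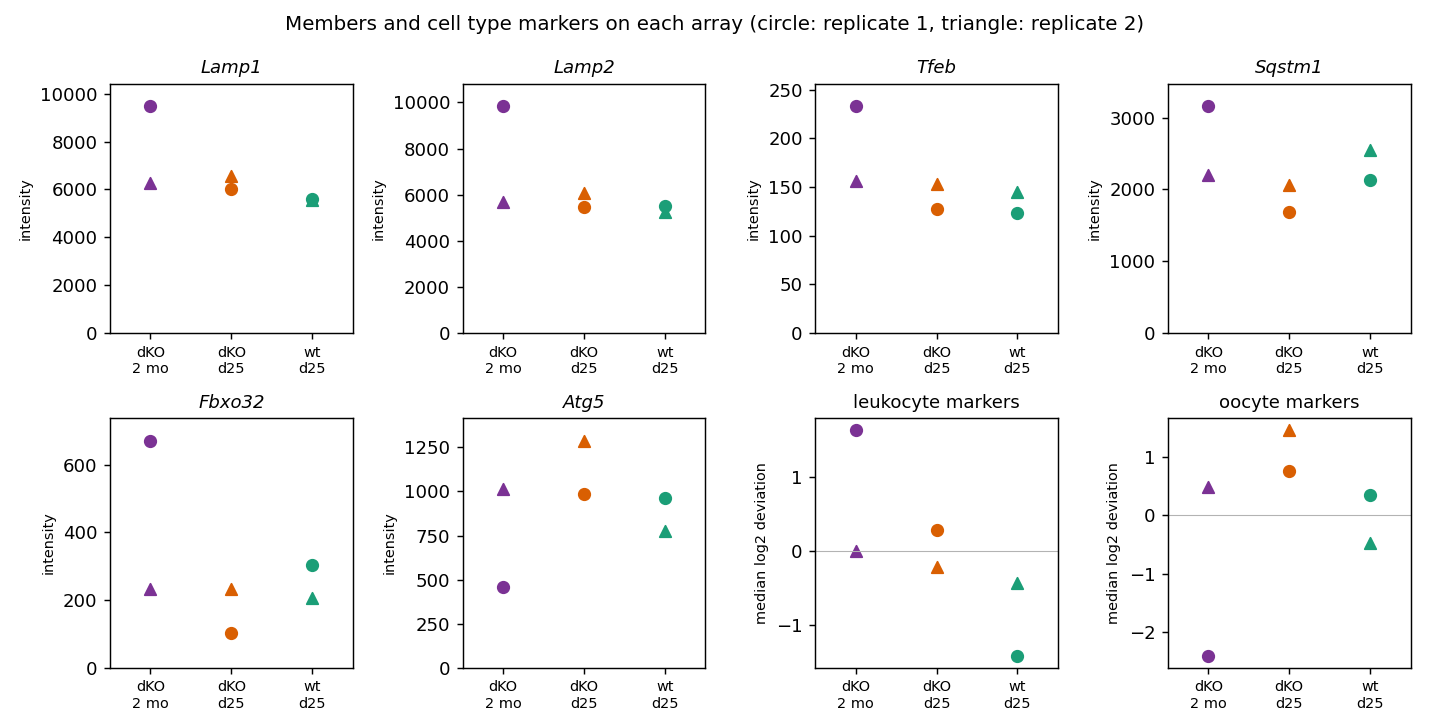
Intensity of 6 members, and the median log2 deviation of leukocyte and oocyte markers from their mean over the arrays, for dKO cells at 2 months, dKO cells at day 25 and wild type (circle for replicate 1, triangle for replicate 2). The circle of dKO cells at 2 months is the highest point for Lamp1, Lamp2, Tfeb, Sqstm1, Fbxo32 and the leukocyte markers and the lowest for Atg5 and the oocyte markers.

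Other genes of these pathways were read from lists, in which 0 genes passed in limma after adjustment, where 0.0% of all genes did. Of 25 measured further atrogenes, mostly subunits and partners of the proteasome and the ubiquitin system, 20 had a lower dKO mean at day 25 and 5 a higher one, with a median log2 difference of -0.16, against 0.03 over all genes. In 16 of the 25 both dKO arrays lay below wild type (19.5% of genes). The number with a lower mean was 19 to 22 when any 1 array was left out. At an unadjusted p under 0.05 3 were lower (3.43% of genes) and 0 higher (4.88%). The lower count was 1 without dKO day-25 replicate 1 or wild-type replicate 1, where 5.22% and 4.98% of genes passed in either direction. It was 6 without either dKO 2-month array, which changes only the pooled spread and with which 15.1% of all genes passed. Psmd1, a subunit of the proteasome's regulatory particle, was at 1982 and 1952 on the dKO day-25 arrays against 2587 and 2585 in wild type (-0.39 ± 0.12, adjusted p = 0.555). Vcp, which unfolds ubiquitin-tagged proteins, was at 5792 and 5472 on the dKO day-25 arrays against 7136 and 7149 in wild type. Not all of this list degrades protein. Pdk4, a kinase that holds back pyruvate oxidation, was at 116 and 261 on the dKO day-25 arrays against 853 and 502 in wild type (-1.90 ± 0.46, adjusted p = 0.502). Cited2, a transcriptional coregulator, was at 1435 and 1760 on the dKO day-25 arrays against 3059 and 3662 in wild type (-1.07 ± 0.36, adjusted p = 0.574). Pdk4 and Cited2 were without overlap at day 25. On the dKO 2-month arrays Pdk4 was at 201 and 214 and Cited2 at 2995 and 1497, so all 4 dKO arrays lay below both wild-type arrays for Pdk4 and Cited2, for Cited2 by a small margin on dKO 2-month replicate 1.

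Lysosomal genes outside the members ran the other way. Of 31 measured, 24 had a higher dKO mean at day 25 and 7 a lower one, against 55.3% and 44.2% of genes. The median log2 difference was 0.15, against 0.03 over all genes. Both dKO arrays lay above both wild-type arrays for 13 (26.4% of genes) and below them for 6 (19.5%). Without wild-type replicate 1 the mean was higher for 20 and lower for 11, with a median of 0.06. With an unadjusted p under 0.05 there was 1 higher gene (4.88% of genes) and 0 lower (3.43%), or 7 higher and 2 lower without either dKO 2-month array, where 15.1% of genes passed in either direction. Markers of more than 1 cell type moved with this list. On dKO 2-month replicate 1 the median log2 deviation was 0.37 for the lysosomal list, 1.64 for leukocyte and 1.11 for endothelial markers. These were the highest of the 6 arrays for each. On wild-type replicate 1 it was -0.21, -1.43 and -0.70, the lowest for each. Erythrocyte, theca and stromal markers were also highest on dKO 2-month replicate 1, while granulosa, oocyte and skeletal muscle markers were not. The part of any of these cells in the list's values was not tested. Between dKO cells at 2 months and at day 25, 26 were higher and 5 lower (53.4% and 46.2% of genes), with a median of 0.23. Without dKO 2-month replicate 1 these were 17 and 14 with 0.03. Tfe3, a relative of Tfeb, was at 666 and 776 on the dKO day-25 arrays against 545 and 463 in wild type (0.52 ± 0.15, adjusted p = 0.555). Ctsb, a cysteine protease of the lysosome, was at 10169 and 5668 on the dKO 2-month arrays, 5231 and 5196 on the dKO day-25 arrays, and 3046 and 3950 in wild type. Ctsl, another such protease, went against the list, at 13567 and 12240 on the dKO 2-month arrays, 16953 and 15723 on the dKO day-25 arrays, and 23155 and 18947 in wild type. Ctsl did not overlap between any pair of groups, and its log2 difference between dKO cells at 2 months and wild type was -0.70 ± 0.14 (limma, adjusted p = 0.237).

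Of 30 other autophagy genes, 19 had a higher dKO mean at day 25 and 11 a lower one. The median log2 difference was 0.03, the same as over all genes. An unadjusted p under 0.05 was found for 1 gene in each direction (4.88% of genes higher and 3.43% lower). Both dKO arrays lay above both wild-type arrays for 13 of the 30 (26.4% of genes) and below them for 6 (19.5%). Pink1, a kinase that marks damaged mitochondria, was at 556 and 559 on the dKO day-25 arrays against 1023 and 657 in wild type. Rubcn, which holds back autophagosome maturation, was at 698 and 771 on the dKO day-25 arrays against 540 and 424 in wild type. Both were without overlap at day 25. Vps39, which tethers membranes before they fuse with the lysosome, was at 866 and 887 on the dKO day-25 arrays against 579 and 721 in wild type (0.44 ± 0.14, adjusted p = 0.558). Sh3glb1, which bends membranes and binds the Beclin complex, was at 1433 and 1335 on the dKO day-25 arrays against 1613 and 1856 in wild type (-0.32 ± 0.12, adjusted p = 0.607). Of 27 regulators in the mTORC1 and AMPK pathways, which restrain and promote autophagy, 18 had a lower dKO mean and 9 a higher one, with a median of -0.08, and 2 in each direction had an unadjusted p under 0.05 (4.88% of genes higher and 3.43% lower). In either direction this was 0 without dKO day-25 replicate 1, where 5.22% of genes passed. Without either dKO 2-month array it was 2 higher and 5 lower, where 15.1% of genes passed. Sesn1, a sestrin that dampens mTORC1, was at 719 and 559 on the dKO 2-month arrays, 664 and 711 on the dKO day-25 arrays, and 1459 and 1057 in wild type. All 4 dKO arrays were below both wild-type arrays, by -0.85 ± 0.21 at day 25 (SE; limma, adjusted p = 0.508). Prkaa2, a catalytic subunit of AMPK, was at 249 and 197 on the dKO 2-month arrays, 213 and 188 on the dKO day-25 arrays, and 91 and 136 in wild type, above wild type on all 4 dKO arrays.

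**Figure D5:**
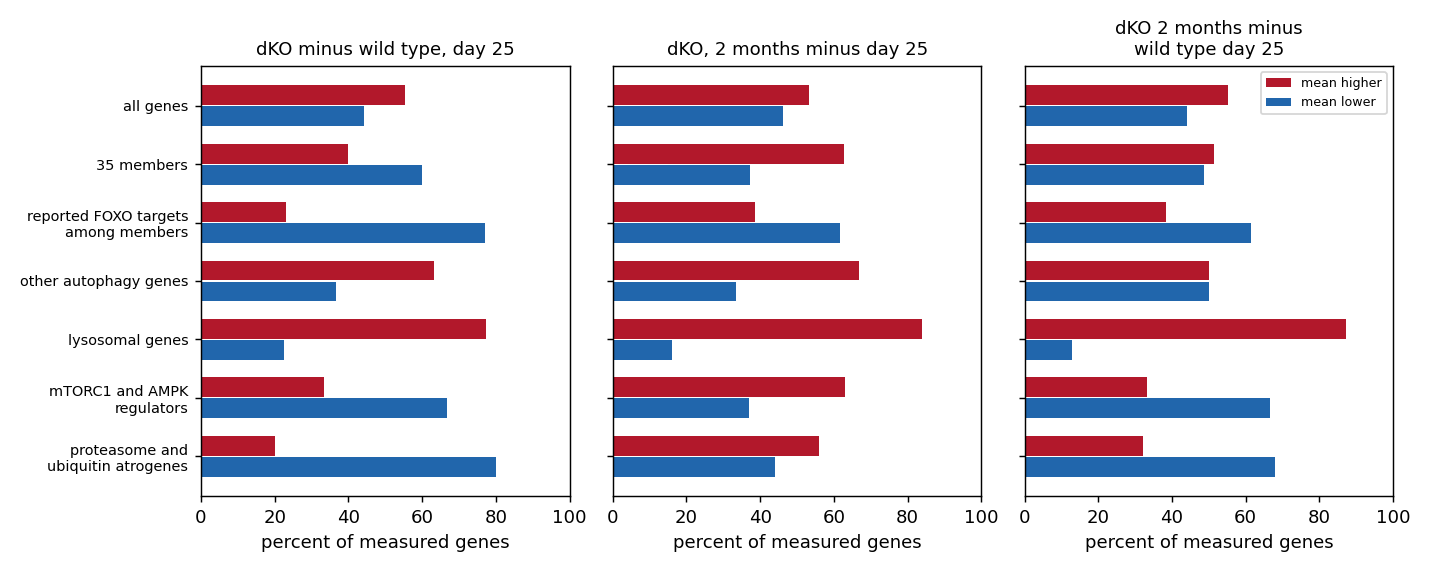
Percent of the measured genes of each list with a higher (red) or lower (blue) mean in the first group of each comparison, for all 18193 genes, the 35 members and 5 lists. At day 25 20 of 25 further atrogenes had a lower dKO mean (44.2% of all genes) and 24 of 31 lysosomal genes a higher one (55.3%).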

How the data were processed

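Per the labels, each sample was total RNA of granulosa cells, labelled with biotin and hybridised to an Affymetrix array of its own. Per the submitters' processing notes, the affy package and RMA made the values. What was deposited is a linear intensity for each probe set in whole numbers. Versions, the rounding, the step back from log2 and a genome build are not given in the sources used here. RMA gives arrays nearly 1 distribution, which hides any shift shared by most genes.

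Values were transformed as log2(value + 1), a scale on which low genes show less than their true change. Of 45101 probe sets, 64 control probe sets were left out and 45037 fitted with limma 3.58.1 in R 4.3.3, with 1 mean per group over all 6 arrays, 3 residual degrees of freedom and empirical Bayes moderation. Adjusted p-values are two-sided Benjamini-Hochberg values over all 45037, with a threshold of 0.05. A probe set was named where the platform annotation gave 1 symbol (34945; 932 had several and 9160 none), and the brightest stood for its gene. Intervals are unadjusted 95% intervals of the moderated test. The number of arrays limits the precision: an exact permutation test of 2 arrays against 2 cannot go below p = 0.333. No label says whether the replicates were separate animals, and the p-values therefore measure only how these samples spread, which may be technical. Same-numbered samples had correlations of their deviations of -0.159, 0.0569 and -0.208 (dKO at day 25 against wild type, dKO at 2 months against day 25, dKO at 2 months against wild type), so they share only a number.

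The members and lists were chosen with earlier results of these data known. Values on every array are given for members with an unadjusted p under 0.05, the 4 of smallest p in each comparison and the reported FOXO targets. For each list up to 4 of the genes of smallest p in a comparison are named, some on the day-25 arrays alone. Other members shown on every array (Atg5, Sqstm1, Lamp1, Lamp2 and Tfeb) were chosen after their values were seen. Promoter windows are from RefSeq on GRCm38.p6. The fit was tested on simulated data. Alternatives were a pseudocount of 16, leaving out dim or cross-hybridizing probe sets, averaging a gene's probe sets, array centring, a second quantile normalization, a robust prior with an intensity trend, array weights, a replicate block, fitting only the arrays compared and leaving out each array; a crossed pairing was added after seeing the data.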

Additional observations from a re-analysis of the deposited data

How the results depend on the processing

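The count of members that passed after adjustment was 0 in each comparison under every alternative run, and the lowest adjusted p of any member was 0.0816, against 0.30 as reported. Over all genes that count was 0 in every alternative too, so it says nothing of stability. The member differences reported with a p kept their direction in 221 of 221 refits. Many of these refits change only the spread or leave out an array outside the comparison. They cannot turn a direction, so the count overstates stability. Sizes did move: Wipi1 between the dKO ages was 0.06 without cross-hybridizing probe sets, against 0.26. Counts at an unadjusted p under 0.05 moved more. With the pseudocount, dim probe set, trend and mean alternatives 6.24% to 15.5% of genes passed, and the cause was not tested. At day 25 the count of 2 was 4 with a pseudocount of 16, 1 without dim probe sets, 5 with the mean of all probe sets and between 1 and 2 when 1 array was left out, where 4.98% to 15.1% of genes passed. Between dKO cells at 2 months and at day 25 the count of 2 was 0 without dim probe sets, 1 with an intensity trend and robust prior, 4 with the mean of all probe sets and between 0 and 11 when 1 array was left out, where 3.94% to 27.4% of genes passed. Between dKO cells at 2 months and wild type the count of 3 was 1 without dim probe sets, 7 with the mean of all probe sets and between 0 and 8 when 1 array was left out, where 6.99% to 30.0% of genes passed. With 1 array left out, the median log2 difference of the members lay between -0.11 and -0.01 at day 25 and between -0.06 and 0.09 for dKO cells at 2 months against wild type.

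With replicate number as a block the counts were 2, 2 and 3 in these comparisons at an unadjusted p under 0.05, and 0 after adjustment. The share of all genes with an unadjusted p under 0.05 was smaller than as reported in each comparison. With the pairing crossed the count between the dKO ages was 5. The share of all genes was also larger there than as reported, so this count is no result about the members alone. A lone array that remained in a group was taken to vary as the other groups do. Trim63 was the one member below the filter on dim probe sets, so its values limit what can be said of it.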
